A study of Mus musculus with 36 samples.

Results

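Callus that had formed by D3 after femoral fracture in RAG1-/- mice was set against intact RAG1-/- bone (D0). The 6 arrays were chosen by their titles, 3 of RAG1-/- day 3 and 3 of RAG1-/- day 0, out of 36 arrays in the study. RAG1-/- mice carry a homozygous knockout of recombination activating gene 1 on a C57BL/6N background and lack mature T and B cells, so both sides of the comparison share the deletion and the comparison does not measure its effect. All animals were males of 8 weeks of age. The D3 samples were fracture callus with a narrow margin of diaphyseal bone, taken after a closed fracture of the left femoral shaft that was held by a pin in the marrow cavity. The D0 samples came, per the methods, from the same region of intact femora, although their tissue label also reads fractured callus. Per the methods, soft tissue was removed, and RNA of 5 mice was combined into 1 pool per group that was put on 3 arrays. The spread given throughout is therefore technical, and no value measures how mice differ. WT C57BL/6N mice were treated in the same way, and both genotypes were also sampled at D7, D14, D21 and D28.

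A fracture opens the marrow and vessels, and the clot that fills the gap is entered first by neutrophils and then by macrophages. Progenitors of the periosteum and marrow then divide and lay down a provisional matrix, in which cartilage and woven bone later form. Lymphocytes also enter the clot, and RAG1-/- mice lack mature T and B cells because the precursors of these cells cannot rearrange receptor genes.

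Expression is given as quantile-normalized log2 signal of Illumina MouseRef-8 v2.0 arrays, and a difference of 1 is a 2-fold change. The D3 arrays correlated with each other at r = 0.983 to 0.9886 over all probes and the D0 arrays at r = 0.9945 to 0.9948. The only Rag1 probe was dim in all 18 RAG1-/- arrays (median 4.6) and in most of the 18 WT arrays (median 4.59, highest 6.8), near the median of all probes (4.72), and its place relative to the deletion is unknown here. Of the bone-defining genes, Ibsp, Bglap1 and Col1a1 were bright in both groups, whereas the osteocyte genes Dmp1 (4.59 at D3 and 4.54 at D0) and Sost (4.46 at D3 and 4.39 at D0) were too dim to be tested. Muscle RNA was abundant on both sides, with skeletal actin (Acta1) at 15.04, 14.70 and 15.04 at D3 and 14.93, 14.70 and 14.70 at D0. Some transcripts that rise with injury or loss of innervation were already high in RAG1-/- bone at D0. The fetal acetylcholine receptor subunit Chrng averaged 9.23 at RAG1-/- D0 and 4.64 at WT D0, serum amyloid A3 (Saa3) 8.66 at RAG1-/- D0 and 4.74 at WT D0, and the serpin Serpina3n 11.64 at RAG1-/- D0 and 6.22 at WT D0. These genotype differences at D0, and their part in the results below, were not tested.

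At D3 more genes were called lower than higher with a 2-fold limit. limma called 100 of 10291 genes higher in RAG1-/- callus (0.972%) and 213 lower (2.07%), together 3.04%, at a Benjamini-Hochberg adjusted p under 0.01 and more than 2-fold. Over 4-fold, 3 were higher and 34 lower, whereas with no fold limit and an adjusted p under 0.05 the counts were close, at 599 higher and 655 lower. Of all tested genes, 5413 had a positive and 4878 a negative difference. The median difference of all tested genes was 0.02. In each of the 313 called genes the D3 arrays lay wholly above or wholly below the D0 arrays. Over all tested genes, the D3 arrays lay wholly above for 24.1% and wholly below for 22.6%. The largest fall belonged to the neutrophil stefin Stfa2 and the largest rise to the histone gene Hist1h2ak.

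**Figure D1:**
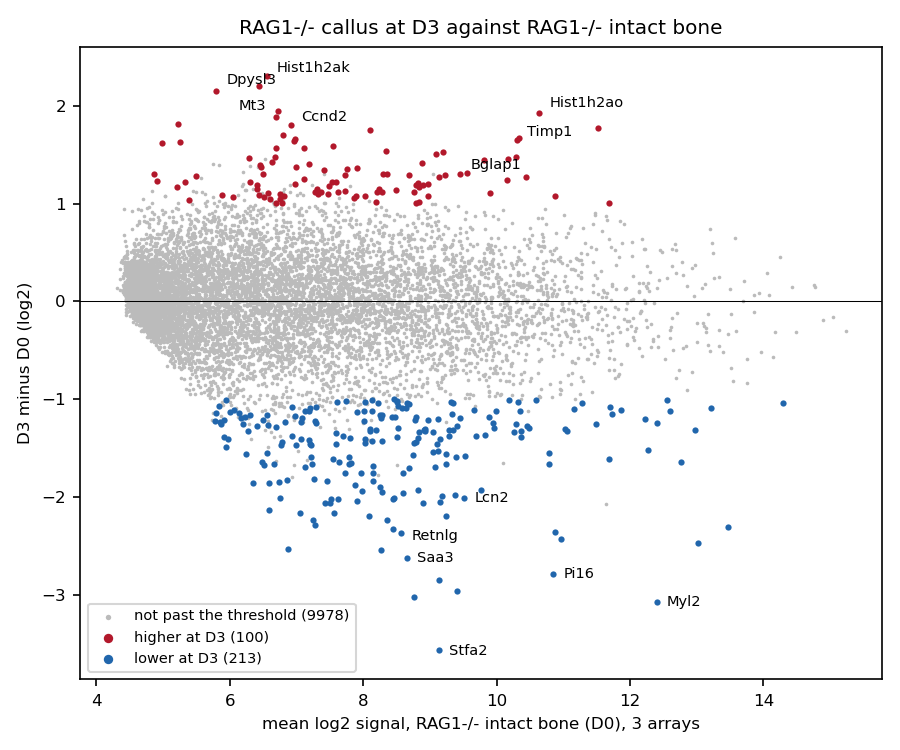
Each point is a tested gene, with its mean log2 signal in RAG1-/- intact bone (3 arrays) on the x axis and its D3 minus D0 difference (log2) on the y axis. The 213 genes lower at D3 (blue) reach down to -3.56 for Stfa2, further from 0 than the 100 higher ones (red), whose top is 2.31 for Hist1h2ak, and grey points did not pass the threshold.

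Genes of mature neutrophils had the lowest median of the 37 gene lists. Of 21 tested genes of the neutrophil granule and S100 list, 14 fell in D3 callus, none rose and 7 did not pass, with a median difference of -1.43 against 0.02 over all genes. Over all tested genes 2.07% fell and 0.972% rose, and each list count below stands against these shares. Lists overlap, so a gene can be counted in several of them. The mean level of the neutrophil list was 7.55 to 7.62 over the D3 arrays and 8.78 to 8.81 over the D0 arrays. Whether fewer neutrophils or less RNA per cell gave the lower level cannot be told apart in bulk tissue, here and for every cell type below.

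Stfa2 encodes a stefin, an inhibitor of cysteine proteases that mature mouse neutrophils make. It read 5.29, 5.53 and 5.89 at D3 and 9.17, 9.20 and 9.03 at D0, an 11.8-fold fall (-3.56 ± 0.22 SE on the log2 scale, adjusted p = 5.82e-12 by limma). All D3 arrays were near the dim end and all D0 arrays far above it. Stfa1 (-2.32 ± 0.43) and the related gene listed as EG433016, current symbol Cstdc4 (-2.16 ± 0.19), fell as well, and the other 3 of the 6 stefin genes on the array were too dim to be tested. The promoters of these 3 genes are shown because the genes fell together and share a stretch of 16 bases, in capitals, the longest that the 250 bases before their starts have in common (RefSeq, GRCm38.p6, each on its gene's strand).

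Stfa2, chr16:36408364-36408613, minus strand: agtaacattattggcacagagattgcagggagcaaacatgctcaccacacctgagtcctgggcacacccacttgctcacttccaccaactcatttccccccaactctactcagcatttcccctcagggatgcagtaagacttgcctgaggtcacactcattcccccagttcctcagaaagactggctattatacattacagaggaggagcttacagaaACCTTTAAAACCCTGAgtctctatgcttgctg
Stfa1, chr16:36276898-36277147, plus strand: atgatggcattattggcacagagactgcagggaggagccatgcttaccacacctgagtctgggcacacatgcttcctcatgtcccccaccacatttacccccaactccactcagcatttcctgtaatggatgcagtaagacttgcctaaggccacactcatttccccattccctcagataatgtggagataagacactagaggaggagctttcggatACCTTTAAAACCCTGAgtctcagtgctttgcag
Cstdc4, chr16:36183962-36184211, plus strand: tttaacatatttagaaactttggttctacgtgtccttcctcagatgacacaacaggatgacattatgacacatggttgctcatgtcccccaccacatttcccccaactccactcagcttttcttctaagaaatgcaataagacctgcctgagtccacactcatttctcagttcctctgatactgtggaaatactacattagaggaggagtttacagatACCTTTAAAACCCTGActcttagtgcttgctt

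The stretch ACCTTTAAAACCCTGA began 32 bases before the start in Stfa2 and Cstdc4 and 33 bases before it in Stfa1. Searched on both strands, it was found in 6 of 32851 promoter windows of this length (0.018%), those of these 3 genes and of Cstdc3, Gm7260 and Stfa2l1. The match describes a sequence and not a binding site. Probes of related stefins may also read each other's transcripts, which was not tested, as the probes were not compared.

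Secondary granule proteins fell too. Lactoferrin (Ltf), which binds iron in those granules, read 11.02, 11.21 and 11.16 at D3 and 12.77, 12.77 and 12.75 at D0 (-1.64 ± 0.15, adjusted p = 1.13e-08). Lipocalin 2 (Lcn2), which traps bacterial siderophores, read 7.55, 7.50 and 7.47 at D3 and 9.51, 9.43 and 9.60 at D0 (-2.01 ± 0.35, adjusted p = 0.000167). In both genes the arrays of each day lay close together and the days far apart. The cathelicidin Camp (-1.55 ± 0.19), neutrophilic granule protein Ngp (-1.93 ± 0.21) and the chitinase-like Chi3l3 (-1.95 ± 0.41) fell, as did the peptidoglycan recognition protein Pglyrp1 (-1.54 ± 0.37) and the surface protein Cd177 (-1.42 ± 0.33). Removing single arrays ended the calls of Pglyrp1, Cd177 and Chi3l3.

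The calprotectin subunits S100a8 and S100a9, abundant in the cytosol of neutrophils, fell less. S100a8 read 11.65, 11.64 and 11.70 at D3 and 13.02, 12.95 and 12.97 at D0 (-1.32 ± 0.18), and S100a9 differed by -1.04 ± 0.19, a call that 2 of the 6 single-array removals ended. The formyl peptide receptor Fpr2 (-2.23 ± 0.34), which senses bacterial and mitochondrial peptides, fell, and so did the leukotriene B4 receptor Ltb4r1 (-2.28 ± 0.38), named after its values were seen. Resistin-like gamma (Retnlg), a product of marrow neutrophils, fell by 2.37.

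Enzymes of the primary granules, made earlier in neutrophil development by promyelocytes, did not pass. Myeloperoxidase (Mpo) read 9.95, 9.84 and 9.71 at D3 and 9.55, 9.46 and 9.55 at D0 (0.31 ± 0.27, adjusted p = 0.679). Proteinase 3 (Prtn3, 0.52 ± 0.23), neutrophil elastase (listed as Ela2, 0.39 ± 0.31) and cathepsin G (Ctsg, 0.20 ± 0.27) had values near those of D0. For Mpo, Prtn3 and Ela2 the D3 arrays lay slightly above the D0 arrays, and for Ctsg the days overlapped.

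**Figure D2:**
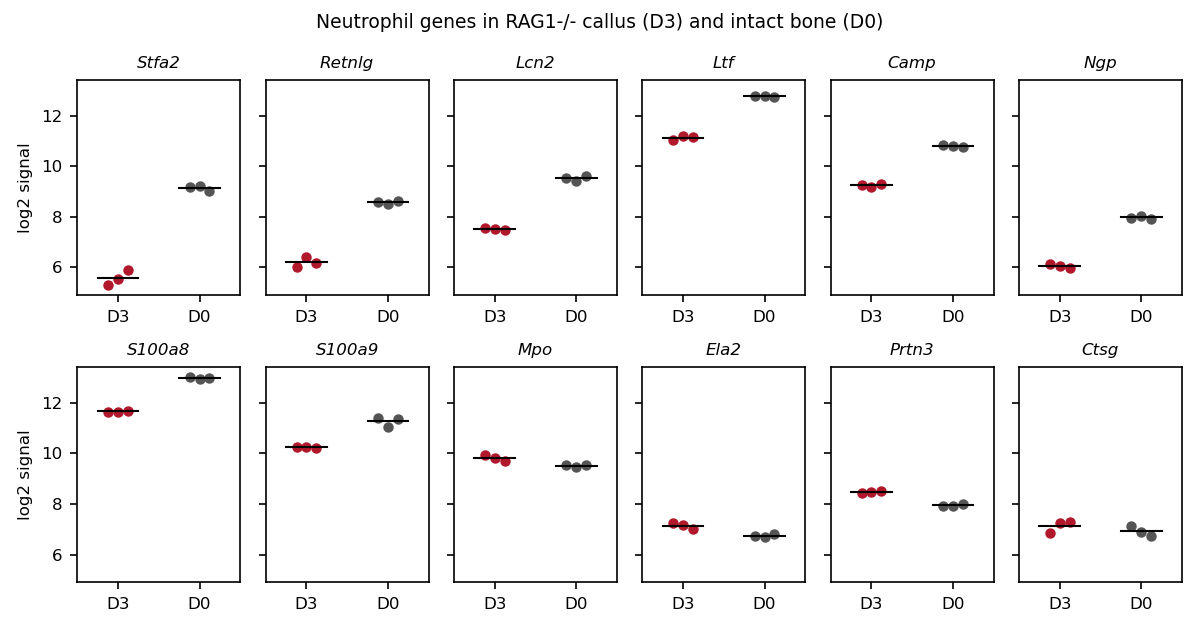
Each of the 12 panels shows a gene, with the log2 signal of the 3 RAG1-/- D3 arrays (left) and the 3 RAG1-/- D0 arrays (right) as points and their mean as a line. Stfa2, Retnlg, Lcn2, Ltf, Camp, Ngp, S100a8 and S100a9 sit lower at D3 with no overlap, whereas Mpo, Ela2, Prtn3 and Ctsg differ by 0.52 or less.

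Acute phase and complement transcripts fell in part. Of 16 tested genes of the acute phase and metallothionein list, 3 fell (Saa3, Lcn2 and Hp) and 1 rose (Mt3), and the median was -0.17. Lcn2 and Hp were also counted in the neutrophil list. Saa3, an apolipoprotein secreted in inflammation, read 6.01, 6.08 and 6.04 at D3 and 8.67, 8.71 and 8.60 at D0 (-2.62 ± 0.35, adjusted p = 5.5e-06), with all D0 arrays far above all D3 arrays. Serpina3n differed by -2.07 ± 0.59 and missed the threshold (adjusted p = 0.0177), although the two-tailed t-test that the methods name (the methods' t-test), run on the same arrays, called it (adjusted p = 0.00255). Metallothionein 3 (Mt3), a zinc-binding protein, rose by 1.89, a call that 3 of the 6 single-array removals ended. The far brighter Mt1 read 14.19, 14.19 and 14.19 at D3 and 14.53, 14.43 and 14.53 at D0 (adjusted p = 0.0561).

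Of 16 tested complement genes, 3 fell (2.07% of all tested genes did), none rose, and the median was -0.48. C4b, of the classical pathway, read 6.35, 6.29 and 6.63 at D3 and 8.44, 8.44 and 8.46 at D0 (-2.02 ± 0.29, adjusted p = 1.3e-05). C3, on which the complement pathways converge, read 8.91, 9.15 and 9.32 at D3 and 10.79, 10.82 and 10.76 at D0 (-1.66 ± 0.16, adjusted p = 1.85e-08). Both had nearly equal D0 arrays, a wider spread at D3 and no overlap. Complement factor D (Cfd), also called adipsin because fat cells secrete it, was the other that fell (-1.93 ± 0.12). The initiator subunits C1qc (-0.85 ± 0.26, adjusted p = 0.0311) and C1qb (0.04 ± 0.30, adjusted p = 0.999) did not pass.

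Among 28 tested monocyte and macrophage genes, 4 fell (2.07% of all tested genes did) and none rose, with a median of -0.06. Those were the mannose receptor Mrc1, the hemoglobin scavenger receptor Cd163, lysozyme 2 (Lyz2, -1.56 ± 0.38) and Chi3l3, which neutrophils also make. Mrc1 read 5.92, 5.89 and 6.18 at D3 and 7.48, 7.73 and 7.69 at D0 (-1.64 ± 0.32). Cd163 read 4.55, 4.36 and 4.45 at D3 and 6.08, 5.97 and 5.78 at D0 (-1.49 ± 0.30), below the median of all probes at D3. Both mark resident macrophages, and in neither did the days overlap. Each single-array removal ended the call of Lyz2.

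General macrophage genes did not pass. The M-CSF receptor Csf1r differed by 0.07 ± 0.23 and Cd68 by 0.24 ± 0.36, with overlapping days, and galectin 3 (Lgals3) by 0.74 ± 0.15, with an adjusted p of 0.000915 but under the 2-fold limit. The iron exporter ferroportin (Slc40a1), with which macrophages return iron to plasma, read 8.16, 8.32 and 8.46 at D3 and 9.64, 9.64 and 9.78 at D0 (-1.37 ± 0.14, adjusted p = 6.9e-08). With the transferrin receptor Tfrc (-1.07 ± 0.13), haptoglobin (Hp, -1.43 ± 0.36) and Cd163, this made 4 of 11 tested genes of iron and heme handling that fell, and none rose. Over all tested genes 2.07% fell, and Hp and Cd163 were also counted in lists above. Each single-array removal ended the call of Hp. Its arrays had an SD of 0.15 at RAG1-/- D3 and 0.04 at RAG1-/- D0, and of 1.08 at WT D3, which also enters the spread of the fit.

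Some contractile muscle genes fell and most did not pass. Of 36 tested contractile genes, 11 fell (2.07% of all tested genes did) and none rose, with a median of -0.55. The difference was negative for 29 and positive for 7. D3 arrays lay wholly below D0 for 25 (22.6% of all tested genes) and wholly above for 3 (24.1%). By limma 25 had an unadjusted p under 0.05 in either direction (20.7% of all tested genes). Separate lists by fibre type were made after the values were seen. The slow-fibre list also holds genes outside the contractile list, such as Myh6 and Atp2a2. Of 12 slow-fibre genes 5 fell (median -0.78), of 14 fast-fibre genes 2 did (median -0.25), and none of either rose. The methods' t-test called 4 slow-fibre genes and 1 fast-fibre gene, and the difference between the fibre types was not tested. The mean level of the slow-fibre list was 8.43 to 8.72 over the D3 arrays and 9.83 to 9.91 over the D0 arrays. That of the fast-fibre list was 11.87 to 12.09 at D3 and 12.35 to 12.42 at D0. How much muscle was taken along with each sample was not tested.

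The slow regulatory light chain Myl2 read 9.37, 9.33 and 9.28 at D3 and 12.34, 12.52 and 12.33 at D0, an 8.42-fold fall (-3.07 ± 0.15, adjusted p = 2.89e-14), the smallest adjusted p of any gene. The slow essential light chain Myl3 read 11.00, 11.13 and 11.35 at D3 and 13.39, 13.42 and 13.58 at D0 (-2.30 ± 0.28, adjusted p = 7e-07). Both stayed well above the dim end at D3, with no overlap between days. The slow myosin heavy chain Myh7 (-2.13 ± 0.14), below the median of all probes at D3, and the atrial heavy chain Myh6 (-2.24 ± 0.36) also fell, although Myh6 missed the threshold in the methods' t-test (adjusted p = 0.0109).

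Of the fast heavy chains, Myh2, of oxidative fast fibres, fell by 1.52 and Myh1 by 1.27, the call of Myh1 being lost in 4 of the 6 single-array removals. Myh4, of the most glycolytic fibres, read 10.74, 11.02 and 10.82 at D3 and 10.50, 10.64 and 10.62 at D0 (0.27 ± 0.17, adjusted p = 0.434), with the D3 arrays slightly higher. Fast troponin T (Tnnt3, 0.10 ± 0.14), Acta1 (0.15 ± 0.12) and muscle creatine kinase (Ckm, -0.45 ± 0.16) did not pass. Titin (Ttn, -1.09 ± 0.12), the spring of the sarcomere, and the Z-disc proteins Actn2 (-1.01 ± 0.13) and Ldb3 (-1.24 ± 0.32) fell, the last 2 not in every single-array removal. Myotilin (Myot) differed by -3.02 ± 0.31 on its brighter probe and by 0.06 on its second, so that its probes disagree.

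Some genes of oxidative metabolism fell. Perm1 (listed as 2310042D19Rik), which controls mitochondrial genes in muscle, read 6.23, 6.42 and 6.68 at D3 and 9.37, 9.51 and 9.33 at D0 (-2.96 ± 0.22, adjusted p = 1.65e-10). Carbonic anhydrase 3 of slow fibres (Car3, -1.71 ± 0.36) fell, a call lost in 1 of the 6 single-array removals. Of 30 genes of fat oxidation and the citric acid cycle, a list added after the values were seen, 7 fell, none rose and 23 did not pass (median -0.62). The methods' t-test called 4, and single-array removals ended the calls of Cs (4 of the 6) and Hadhb (3 of the 6). Medium-chain acyl-CoA dehydrogenase (Acadm) read 9.65, 9.75 and 9.82 at D3 and 11.07, 11.04 and 11.08 at D0 (-1.32 ± 0.12), with the days clearly apart. The fatty acid binding protein Fabp3 (-1.29 ± 0.16) and mitochondrial isocitrate dehydrogenase (Idh2, -1.31 ± 0.16) also fell.

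In the respiratory chain most differences were small and negative. Of 69 tested subunits, 2 fell and 1 rose, with a median of -0.38, and 59 had a negative and 10 a positive difference. For 47 subunits the D3 arrays lay wholly below the D0 arrays, a larger share than the 22.6% of all tested genes. By limma 39 subunits had an unadjusted p under 0.05, also a larger share than the 20.7% of all tested genes. The acetylcholine receptor subunit Chrng, which muscle makes before birth and after loss of its nerve, read 10.03, 10.37 and 10.19 at D3 and 9.24, 9.25 and 9.21 at D0 (0.97 ± 0.36, adjusted p = 0.0875). Its D3 arrays lay above its D0 arrays, which were themselves bright. limma called none of 16 tested genes of the myogenic and acetylcholine receptor list (10 at an unadjusted p under 0.05, 1 by the methods' t-test), where 20.7% of all tested genes had an unadjusted p under 0.05.

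Some genes of fat storage and breakdown fell. Lipoprotein lipase (Lpl), which frees fatty acids from circulating lipids, read 10.46, 10.58 and 10.60 at D3 and 12.98, 13.04 and 13.02 at D0 (-2.47 ± 0.17, adjusted p = 4.87e-11). Of 14 tested adipocyte genes, 4 fell (Lpl, Cfd, Dgat2 and Pnpla2), none rose, 10 did not pass, and the median was -0.43. Over all tested genes 2.07% fell, and Cfd was also counted in the complement list. Dgat2 (-1.57 ± 0.31) makes triglycerides and Pnpla2 (-1.33 ± 0.21) breaks them down. The insulin-regulated glucose transporter Slc2a4 (-2.02 ± 0.28), named after its values were seen, fell too. Adiponectin (Adipoq), a defining product of fat cells, averaged 4.94 at D3 and 5.24 at D0, close to the dim end (adjusted p = 0.9), and muscle also expresses Lpl, Dgat2, Pnpla2 and Slc2a4.

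Peptidase inhibitor 16 (Pi16), a marker of fibroblast progenitors around vessels in mouse tissues, read 7.85, 7.97 and 8.35 at D3 and 10.87, 10.90 and 10.76 at D0, a 6.9-fold fall (-2.79 ± 0.19, adjusted p = 2.89e-11). The days were far apart. The methyltransferase Inmt fell by 2.54. In the fibroblast and progenitor list 1 of 21 tested genes rose (Acta2) and none fell, with a median of 0.06. Over all tested genes 0.972% rose.

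Endothelial genes moved in both directions, with 1 of 29 tested higher and 3 lower (median -0.15). Over all tested genes 0.972% were higher and 2.07% lower. The VEGF receptor Flt1 read 7.80, 8.09 and 7.97 at D3 and 9.47, 9.45 and 9.66 at D0 (-1.58 ± 0.12, adjusted p = 5.4e-10). Its ligand Vegfa (-1.39 ± 0.22) and the co-receptor Nrp1 (-1.18 ± 0.17) fell, and so did the tight junction protein Cldn5 (-1.39 ± 0.19), named after its values were seen. Plvap, of fenestrated capillaries, read 9.35, 9.28 and 9.20 at D3 and 8.01, 7.84 and 7.89 at D0 and rose by 1.36. Pecam1, which all endothelium carries, differed by -0.62 ± 0.32 on its brighter probe (adjusted p = 0.285) and by -1.75 on its second. The mean over its probes differed by -1.19 and passed the threshold (adjusted p = 0.00241 by limma).

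**Figure D3:**
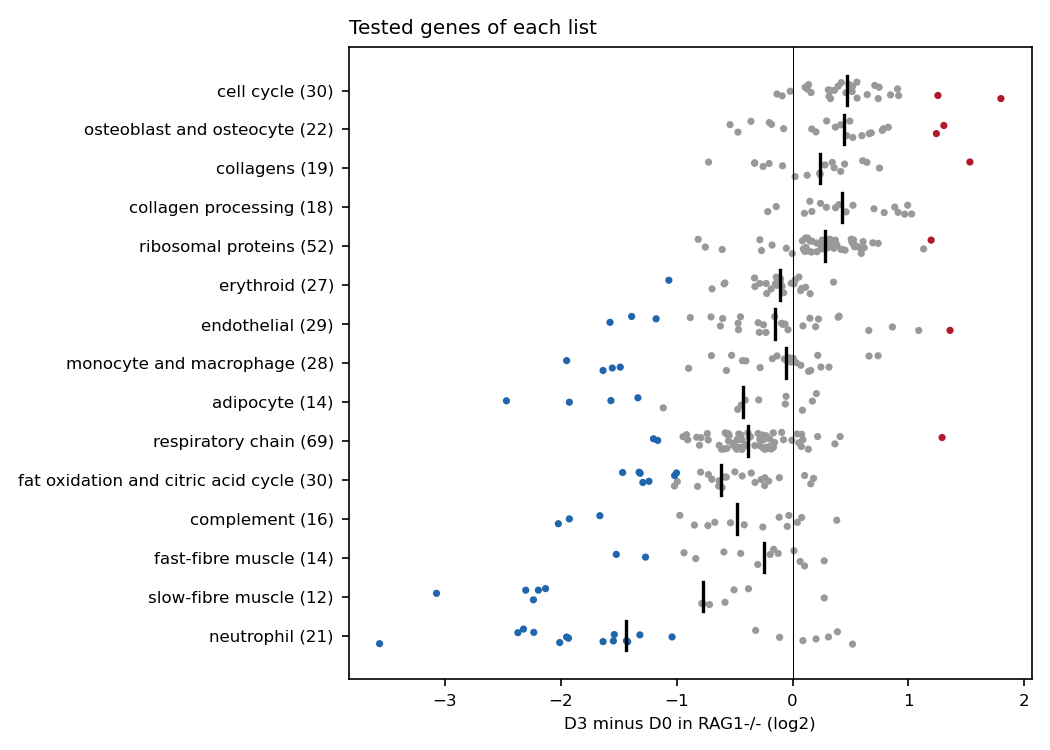
Each row is a gene list with its number of tested genes, each point a gene's RAG1-/- D3 minus D0 difference (log2, red higher, blue lower, grey not past the threshold) and each black bar the list's median. The medians run from -1.43 for neutrophil genes to 0.47 for cell cycle genes.

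Osteocalcin was the bone gene that rose. Bglap1, the matrix protein and hormone of mature osteoblasts, read 10.84, 10.79 and 10.66 at D3 and 9.45, 9.42 and 9.51 at D0, a 2.47-fold rise (1.31 ± 0.12, adjusted p = 6.78e-09). Its copy Bglap2 (1.24 ± 0.13) rose alike, and since their sequences are close the probes may read each other's transcripts. Bglap1 and Bglap2 were the 2 that rose among 22 tested osteoblast and osteocyte genes, none fell, and the median was 0.44. Over all tested genes 0.972% rose.

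Other bone formation genes stayed under the limits. Bone sialoprotein (Ibsp) differed by 0.66 ± 0.18 (adjusted p = 0.0115), osterix (Sp7), the transcription factor of osteoblast commitment, by 0.52 ± 0.17 (adjusted p = 0.0465), and osteopontin (Spp1) by 0.83 ± 0.25 (adjusted p = 0.0265). The second Ibsp probe differed by -0.24. Cathepsin K (Ctsk), the bone-resorbing protease of osteoclasts, read 9.84, 9.57 and 9.65 at D3 and 9.04, 8.85 and 8.75 at D0 (0.81 ± 0.17, adjusted p = 0.00111), with no overlap but under 2-fold. limma called none of 14 tested osteoclast genes (3 at an unadjusted p under 0.05, 0 by the methods' t-test). By limma 20.7% of all tested genes had an unadjusted p under 0.05.

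Of 19 tested collagen genes, 1 rose (0.972% of all tested genes did) and none fell. It was Col6a2, of the microfibrils around cells, which read 10.64, 10.79 and 10.77 at D3 and 9.20, 9.15 and 9.25 at D0 (1.53 ± 0.23). Col1a1, the main collagen of bone, read 13.16, 12.65 and 12.58 at D3 and 12.49, 12.55 and 12.64 at D0 (0.24 ± 0.15, adjusted p = 0.435), so that the days overlapped. limma called none of 18 collagen processing genes (7 at an unadjusted p under 0.05, 1 by the methods' t-test). D3 arrays lay wholly above D0 for 12 of these (24.1% over all genes). It also called none of 29 other matrix genes (11 at an unadjusted p under 0.05, 1 by the methods' t-test). By limma 20.7% of all tested genes had an unadjusted p under 0.05.

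Timp1, an inhibitor of matrix metalloproteinases, read 11.95, 11.96 and 11.95 at D3 and 10.24, 10.33 and 10.33 at D0, a 3.13-fold rise (1.65 ± 0.10, adjusted p = 6.04e-12). Its D3 arrays were nearly equal, and its second probe differed by 1.63. The metalloproteinase Mmp23 rose by 1.10, while the collagenase Mmp13 differed by 0.25 ± 0.10. Smooth muscle actin (Acta2), of vessel walls and contractile fibroblasts, read 12.71, 12.69 and 12.68 at D3 and 11.74, 11.70 and 11.63 at D0 and lay at the 2-fold limit (1.00 ± 0.11), with a mean over its probes of 0.69, and 2 of the 6 single-array removals ended the call. Of 32 tested secretory pathway genes, 3 rose, the ribosome receptor Rrbp1 (1.30 ± 0.32), the translocon-associated Ssr2 (1.19 ± 0.20) and the cargo protein Tmed3 (1.08 ± 0.21), and the disulfide isomerase Pdia3 fell (-2.01 ± 0.48). Of these 4 only Ssr2 kept its call without any single array.

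Cartilage genes split, with 2 of 11 tested higher and 3 lower (0.972% and 2.07% over all tested genes). Aggrecan (Acan), the main cartilage proteoglycan, read 8.52, 8.38 and 8.22 at D3 and 7.07, 6.96 and 6.97 at D0 (1.37 ± 0.28), and the matrix protein chondroadherin (Chad) rose by 1.15. Type IX collagen (Col9a2, -1.66 ± 0.21), matrilin 4 (Matn4, -1.40 ± 0.14) and Comp (-1.30 ± 0.18), which associate with collagen fibrils, fell. Type II collagen (Col2a1, -0.50 ± 0.48) did not pass (adjusted p = 0.735). Second probes gave smaller differences for Acan (0.35) and Matn4 (-0.42), and the means over probes (0.86 and -0.91) were under the 2-fold limit. Single-array removals ended the call of Chad.

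Of 30 tested genes of cell division, 2 rose, against 0.972% of all genes, and none fell. D3 arrays lay wholly above D0 for 21 of them, against 24.1% of all genes, and the median was 0.47. Cyclin D2 (Ccnd2), which drives entry into the cell cycle, read 8.95, 8.95 and 8.25 at D3 and 6.78, 6.73 and 7.23 at D0 (1.80 ± 0.26, adjusted p = 1.45e-05), with a wide spread and no overlap. It missed the threshold in the methods' t-test (adjusted p = 0.0208). Survivin (Birc5), which guards chromosome segregation, read 8.43, 8.39 and 8.30 at D3 and 7.15, 7.17 and 7.03 at D0 (1.25 ± 0.19, adjusted p = 2.57e-05), with a mean over its probes of 0.92, under the 2-fold limit.

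Clustered histone H2A genes held the largest rise of any gene, and no H2B, H3 or H4 gene rose. H2A is a nucleosome subunit whose replication-dependent copies are made in S phase together with H2B, H3 and H4. In a split by family made after the values were seen, 8 of 13 tested H2A genes rose and none fell, with a median of 1.62. limma called none of 10 H2B genes (0 at an unadjusted p under 0.05, 0 by the methods' t-test) and none of 5 H3 genes (0 at an unadjusted p under 0.05, 0 by the methods' t-test), and of 8 H4 genes 1 fell, Hist1h4h (-1.68 ± 0.34), which missed the threshold in the methods' t-test (adjusted p = 0.0104). The methods' t-test called 0 of the H2A genes, with adjusted p of 0.0142 to 0.0305 for those that limma called.

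Hist1h2ak (current symbol H2ac15) read 9.39, 8.79 and 8.39 at D3 and 6.72, 6.29 and 6.65 at D0, a 4.95-fold rise (2.31 ± 0.24, adjusted p = 7.95e-08 by limma). Hist1h2ah (H2ac12) read 9.11, 8.73 and 8.07 at D3 and 6.42, 6.36 and 6.52 at D0 (2.20 ± 0.22). The brightest, Hist1h2ao (H2ac23), read 12.85, 12.59 and 12.26 at D3 and 10.64, 10.32 and 10.96 at D0 (1.93 ± 0.19). In all 3 genes the D3 arrays spread over a wide range without reaching the D0 arrays. Their order was the same in all 3, highest in replicate 1 and lowest in replicate 3. Since the D3 arrays hold 1 RNA pool, this shared order is technical. The others that rose were Hist1h2ad (1.94 ± 0.43), Hist1h2af (1.75 ± 0.19), Hist2h2ac (1.67 ± 0.19), Hist1h2ag (1.61 ± 0.39) and Hist1h2an (1.59 ± 0.22), and single-array removals ended the calls of Hist1h2ad and Hist1h2ag. Copies of H2A are nearly identical, so which of them each probe reads is uncertain and the 8 rises may not be separate measurements. Of the 5 that did not pass, 4 were near the median of all probes on both days, and Hist2h2aa1 averaged 8.79 at D3 and 9.22 at D0.

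Promoters of 3 genes that rose are shown to set members of the clusters on chromosomes 13 and 3 beside each other. Each is the 250 bases before the start on the gene's strand (RefSeq, GRCm38.p6), and capitals mark CCAAT, a box common in histone promoters, on either strand (CCAAT or ATTGG).

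H2ac15 (Hist1h2ak), chr13:21753913-21754162, minus strand: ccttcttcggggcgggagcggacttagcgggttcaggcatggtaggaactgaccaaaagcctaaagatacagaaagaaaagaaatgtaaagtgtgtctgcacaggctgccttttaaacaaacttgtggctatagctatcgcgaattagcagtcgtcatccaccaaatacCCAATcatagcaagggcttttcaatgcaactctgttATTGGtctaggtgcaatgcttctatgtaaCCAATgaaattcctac
H2ac12 (Hist1h2ah), chr13:22035644-22035893, minus strand: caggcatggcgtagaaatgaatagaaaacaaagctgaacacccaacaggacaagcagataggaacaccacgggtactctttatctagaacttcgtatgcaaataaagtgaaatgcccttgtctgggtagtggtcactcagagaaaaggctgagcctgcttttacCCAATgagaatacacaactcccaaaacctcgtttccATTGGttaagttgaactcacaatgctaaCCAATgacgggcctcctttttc
H2ac20 (Hist2h2ac), chr3:96220881-96221130, minus strand: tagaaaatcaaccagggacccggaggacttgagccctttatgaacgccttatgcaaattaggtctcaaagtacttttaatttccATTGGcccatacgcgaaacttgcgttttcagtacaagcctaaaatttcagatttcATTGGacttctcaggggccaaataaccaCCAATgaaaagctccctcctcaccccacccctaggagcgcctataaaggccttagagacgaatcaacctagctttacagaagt

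Each window held 3 matches, and 2.8% of 32851 promoter windows of this length held at least 3. The number did not separate the members, since the H2A genes that rose had 2 to 5 matches and those that did not pass had 2 to 4. A match describes the sequence and not binding.

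**Figure D4:**
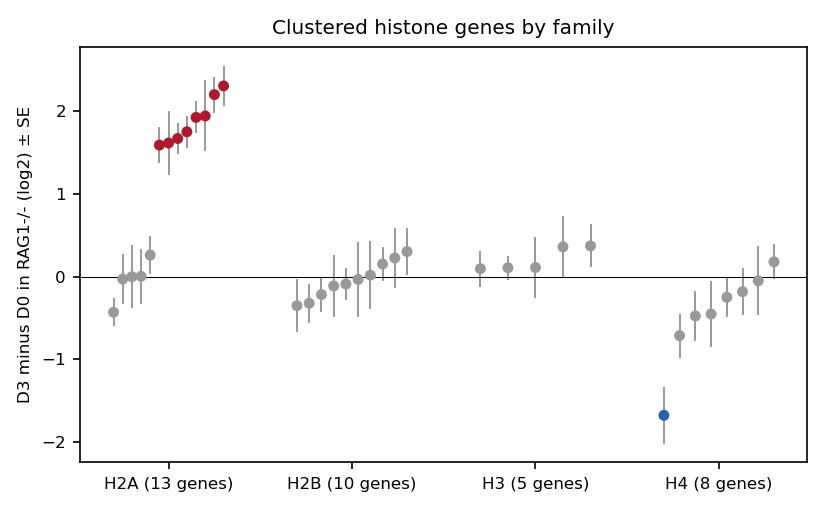
Each point is a tested clustered histone gene, grouped by family, with its RAG1-/- D3 minus D0 difference (log2) and its SE as the bar, red where higher and blue where lower. The 8 red H2A genes lie between 1.59 and 2.31, and no H2B, H3 or H4 gene lies above 0.37.

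Other large rises were of single genes. Dpysl3, a cytoskeletal protein of migrating cells, read 8.21, 7.97 and 7.68 at D3 and 5.72, 5.82 and 5.85 at D0, a 4.45-fold rise (2.15 ± 0.26, adjusted p = 8.39e-07). Mustn1, a nuclear protein of muscle and bone, read 13.42, 13.30 and 13.20 at D3 and 11.51, 11.51 and 11.57 at D0 (1.78 ± 0.14, adjusted p = 7.35e-10), and its second probe differed by 1.63. Neither gene's days overlapped. The membrane protein Emp3 rose by 1.66, and the branched-chain aminotransferase Bcat1 by 1.64, a call that each single-array removal ended. For Bcat1 the SD of the arrays was 0.06 at RAG1-/- D3 and 0.02 at RAG1-/- D0. It was 1.02 at WT D3, whose arrays also enter the spread of the fit, and their part in the lost call was not tested.

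Signalling genes had single calls. Smad3, which carries the TGF-beta signal to the nucleus, rose by 1.10, the only call among 27 tested BMP and TGF-beta genes, and 2 of the 6 single-array removals and the methods' t-test (adjusted p = 0.0133) ended it. Tgfb1 differed by 1.12 ± 0.39 (adjusted p = 0.0598), which the methods' t-test called (adjusted p = 0.00409). Stat3, which carries signals of the interleukin 6 family and was named after its values were seen, rose by 1.11, but missed the threshold in the methods' t-test (adjusted p = 0.0107) and had a mean over its probes of 0.73, under the 2-fold limit. Insulin-like growth factor 2 (Igf2) read 10.79, 10.71 and 10.79 at D3 and 11.80, 11.91 and 11.91 at D0 (-1.11 ± 0.14), while Igf1 differed by 0.44 ± 0.17 (adjusted p = 0.101). The growth factor Fgf1 fell by 1.13, a call that 1 of the 6 single-array removals ended. It averaged 6.01 at D0 and 4.88 at D3, close to the dim end. limma called none of 23 tested Wnt genes (4 at an unadjusted p under 0.05, 0 by the methods' t-test). By limma 20.7% of all tested genes had an unadjusted p under 0.05.

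No inflammatory cytokine that was bright enough to be tested passed. limma called none of 21 tested cytokine and receptor genes (2 at an unadjusted p under 0.05, 0 by the methods' t-test). By limma 20.7% of all tested genes had an unadjusted p under 0.05. The array held 32 genes of this list, and the others, among them Tnf, Il1a and Il10, were too dim to be tested. Interleukin 1 beta (Il1b) differed by -0.78 ± 0.15, under the 2-fold limit. Of 33 chemokine and receptor genes on the array 18 were bright enough to be tested, and Ccl2, Cxcl2, Cxcl3 and Cxcl10 were not. Of the 18 tested genes 2 fell, Ccl4 (-1.28 ± 0.32) and Cxcl14 (-1.12 ± 0.24), and none rose. Both calls were lost without single arrays, and the second Cxcl14 probe differed by -0.17, with a mean over its probes of -0.65. The antiviral gene Rsad2 fell by 1.08, alone among 20 type I interferon genes and not in 1 of the 6 single-array removals, and the peptide transporter Tap2 by 1.58, alone among 23 interferon gamma and MHC class II genes. The class II chains H2-Ab1 (0.87 ± 0.11, adjusted p = 3.32e-06) and H2-Eb1 (0.92 ± 0.14, adjusted p = 4.7e-05), which present antigen to T helper cells, were under the 2-fold limit.

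Most markers of mature lymphocytes were dim. Cd3e averaged 4.70 at D3 and 4.62 at D0. Of 24 mature lymphocyte and NK genes on the array 5 were bright enough to be tested. Perforin (Prf1), of NK and cytotoxic T cells, read 7.26, 7.90 and 7.94 at D3 and 6.70, 6.63 and 6.77 at D0 and was the only one that passed, at the 2-fold limit (1.00 ± 0.16), but not in the methods' t-test (adjusted p = 0.0459) or in 3 of the 6 single-array removals. limma called none of 7 early B lineage genes (1 at an unadjusted p under 0.05, 0 by the methods' t-test). By limma 20.7% of all tested genes had an unadjusted p under 0.05. Of 27 erythroid genes 1 fell, Tfrc, where 2.07% of all tested genes did, and the median was -0.11.

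Of 34 tested genes that the study's text names, 1 rose (Bglap1) and 4 fell (C4b, C3, Col9a2 and Igf2), with a median of 0.29. The study chose them on these samples, so the count is not independent evidence.

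Later days share the D0 arrays with the comparison above and are given side by side as levels. Over D0, D3, D7, D14, D21 and D28, Stfa2 averaged 9.13, 5.57, 5.70, 4.66, 4.69 and 4.56. Lcn2 averaged 9.52, 7.51, 6.98, 4.73, 5.86 and 6.35. Both stayed below D0 on every later day. Myl2 averaged 12.40, 9.32, 11.28, 11.59, 10.47 and 12.59. C4b averaged 8.45, 6.43, 7.66, 7.58, 6.99 and 8.41. Both were lowest at D3. Timp1 averaged 10.30, 11.95, 11.91, 11.56, 11.69 and 11.35. Hist1h2ak averaged 6.55, 8.86, 8.44, 7.70, 8.93 and 8.56. Bglap1 averaged 9.46, 10.76, 11.23, 12.27, 12.79 and 10.43. These 3 were lowest at D0.

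**Figure D5:**
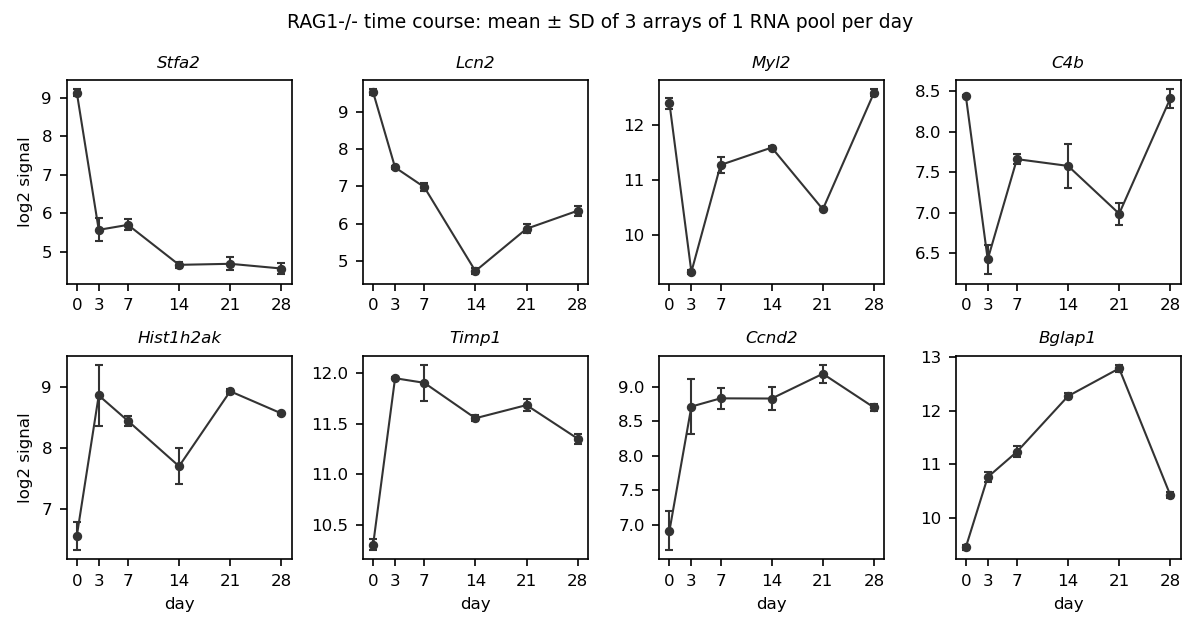
Each panel plots a gene's mean log2 signal in RAG1-/- arrays against the day after fracture, with the SD of the 3 arrays of the day's RNA pool as bars and D0 for intact bone. Stfa2 and Lcn2 stay below their D0 levels of 9.13 and 9.52, Myl2 and C4b are lowest at D3, and Hist1h2ak, Timp1, Ccnd2 and Bglap1 are lowest at D0.

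The change to D3 was then compared between genotypes, as the RAG1-/- change minus the WT change. By limma, 1341 genes had a higher change in RAG1-/- (13.0%) and 1229 a lower one (11.9%), with an adjusted p under 0.05 and more than 2-fold. Of the 313 genes called in RAG1-/-, 177 (56.5%) were among them, against 25.0% of all tested genes, and both contrasts share the RAG1-/- arrays. Among the genes that rose in RAG1-/-, 52 had a higher and 5 a lower change than in WT. Among those that fell, 76 had a lower and 44 a higher change than in WT. The WT D3 arrays stood apart: they correlated with each other at r = 0.9039 to 0.9169, and their mean with the RAG1-/- D3 mean at 0.8526. Of genes with both probes at an adjusted p under 0.05, the probes opposed each other in 0 of 93 for the RAG1-/- change and in 112 of 558 (20.1%) for the WT change. The part of the WT arrays in the genotype difference was not tested.

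Some of the falls were not seen in WT. C4b averaged 6.43 and 8.45 at D3 and D0 in RAG1-/- and 9.19 and 6.99 in WT, a difference of changes of -4.22. Myl2 averaged 9.32 and 12.40 in RAG1-/- and 12.13 and 12.06 in WT (-3.14). Stfa2 was near the dim end in WT on both days (-3.55). For Mrc1 (-0.04), Cfd (-0.02) and S100a9 (0.08) the difference of changes was close to 0 and did not pass.

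Among the rises, Timp1 averaged 11.95 and 10.30 at D3 and D0 in RAG1-/- and 11.87 and 9.43 in WT (-0.79, adjusted p = 8.19e-05 by limma, under the 2-fold limit). Hist1h2ak averaged 8.86 and 6.55 in RAG1-/- and 7.69 and 9.50 in WT (4.12), opposite in direction. The probes of the osteocalcin copies Bglap1 and Bglap2 changed alike in RAG1-/- (1.31 and 1.24) but not in WT (-0.31 and 1.23). Whether the genes or only their probes differ was not tested. Bglap1 averaged 10.76 and 9.46 in RAG1-/- and 11.23 and 11.53 in WT, a difference of changes of 1.61 (adjusted p = 1.49e-08), and for Bglap2 it was 0.02. S100a8, lower at D3 in both genotypes, averaged 11.66 and 12.98 in RAG1-/- and 7.55 and 12.85 in WT (3.98).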

How the data were processed

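RNA was measured on 36 Illumina MouseRef-8 v2.0 arrays, 3 technical arrays for each of 12 pools of 5 mice. The deposited values are log2 signals, which the authors pre-processed with beadarray and quantile normalized between arrays with lumi. Another 264 columns, named by BeadChip position, could not be paired with samples and were left out. A probe was tested when its mean over the 36 arrays exceeded the median of the 25697 probes (4.72), and a gene's brightest tested probe stood for it (10291 genes). Of the deposited symbols, 8296 were current, 1552 were updated through RefSeq and 443 matched none. Limma 3.58.1 in R 4.3.3 fitted a mean for each of the 12 groups. A change to D3 was called at an adjusted p under 0.01 and more than 2-fold, and the change in RAG1-/- was called different from that in WT by the same fold limit with an adjusted p under 0.05. The number of arrays limits the precision (median residual SD 0.389). This SD is pooled over the 12 groups, so each SE also carries the spread of the WT arrays. The median SD between arrays was 0.0976 at RAG1-/- D0 and 0.1614 at RAG1-/- D3. In the WT groups it ran from 0.249 at D14 to 0.3648 at D28. The fit was tested on simulated data. Figures were drawn with matplotlib 3.10.9.

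The comparison, the 37 gene lists and the named genes were chosen with earlier results of these data known, and 8 further lists were added after the values were seen. Named genes were the 15 largest calls in each direction whose days did not overlap, up to 5 called members in each direction and up to 4 bright members that did not pass for each list, the genes the study names, and the 6 largest genotype differences in each direction. Not all of these are described, some items are not reported here, and some others were added as examples after their values were seen. Alternatives covered the filter, the probe rule, the arrays in the fit, array weights, centring, the methods' t-test, the replicate number as a block, the thresholds and each array left out.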

Additional observations from a re-analysis of the deposited data

Results flagged for a closer look

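The change to D3 differed between RAG1-/- and WT, by a limma test of the difference itself, for 1341 genes with a higher and 1229 with a lower change in RAG1-/-. Highest were the fast myosin light chain Mylpf (8.88), the ribosomal protein genes Rpl31 (6.42), Rps6 (6.16) and Rps2 (5.84), the predicted locus LOC665250 (5.79) and the splicing regulator Mbnl1 (5.42), on the log2 scale. Mylpf averaged 13.16 and 13.75 at D3 and D0 in RAG1-/- and 4.80 and 14.27 in WT. Rps6 averaged 10.21 and 9.82 in RAG1-/- and 4.94 and 10.72 in WT. None of these 6 was called in RAG1-/- alone. Except for Rps2, their WT D3 means were near the median of all probes (4.72), so that these sizes depend on the dim end of the scale and give no exact order.

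Lowest were Pi16 (-4.82), the transcription factor Dlx3 (-4.29), Myh6 (-4.28), the channel protein Panx3 (-4.27), C4b (-4.22) and the transcription factor Arid3a (-4.03). Pi16 averaged 8.06 and 10.84 at D3 and D0 in RAG1-/- and 11.36 and 9.33 in WT. Dlx3 averaged 8.41 and 7.91 in RAG1-/- and 10.61 and 5.82 in WT. Pi16, Myh6 and C4b were also called in RAG1-/- alone, and Dlx3, Panx3 and Arid3a were not.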

How the results depend on the processing

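The counts of 100 higher and 213 lower genes depended on the spread estimate and the limits. There were 152 higher and 311 lower with array weights, 153 and 306 with only the 18 RAG1-/- arrays in the fit, and 153 and 305 with only the 6 compared arrays. An adjusted p under 0.05 with no fold limit gave 599 higher and 655 lower, and an adjusted p under 0.01 with a 4-fold limit 3 and 34, or 574 and 262 for the genotype difference of 1341 and 1229. Leaving out each array gave 75 to 87 higher and 165 to 187 lower genes, and 1236 to 1360 and 1087 to 1282 for the genotype difference, where leaving out WT arrays was chosen after seeing the data. Without the WT arrays of D3 and D7, also chosen after seeing the data, 117 were higher and 245 lower. The methods' t-test called 100 higher and 198 lower at the same limits, of which 68 and 162 were shared with limma. With no fold limit it called 442 and 445, and 1232 and 1150 before adjustment.

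The replicate numbers share only a number (correlations of same-numbered deviations -0.016, 0.003 and -0.03), and with the replicate block the counts were 97, 210, 1351 and 1223. Of 154 genes compared by name 101 passed, and none of these changed sign in any setting. The sign of 3 others did when single arrays were left out: C1qb (-0.08 to 0.13, the lowest without D0 replicate 1), Csf1r (-0.07 to 0.22, with -0.07 without D3 replicate 2 and -0.01 without D0 replicate 2) and Rag1 (-0.14 to 0.06, the highest without D0 replicate 1). Leaving out single arrays ended 28 calls (adjusted p up to 0.0404, or under 2-fold). Each of the 6 arrays did so for Bcat1, Ccl4, Hp, Ldb3, Luc7l2, Lyz2, Pglyrp1 and Rrbp1, and 1 to 5 of them for Acta2, Actn2, Car3, Cd177, Chad, Chi3l3, Cs, Cxcl14, Fgf1, Hadhb, Hist1h2ad, Hist1h2ag, Mt3, Myh1, Pdia3, Prf1, Rsad2, S100a9, Smad3 and Tmed3. The methods' t-test ended 20 of the 101 calls and added Serpina3n, P4ha2 and Tgfb1. The mean of a gene's probes ended 9 of the 101 and added Pecam1, and over all genes it shared 82 higher and 198 lower calls. The cause was not tested. Dim probes limit what can be read, and 26 genes called lower had a D3 mean below 5.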

Other observations

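Some single genes outside the lists fell. The arginine methyltransferase Prmt1 (listed as Hrmt1l2) read 8.58, 8.71 and 8.32 at D3 and 10.96, 10.97 and 10.94 at D0 (-2.42 ± 0.19, adjusted p = 6.45e-10 by limma). Hnrnpa2b1 (-1.84 ± 0.17), Srsf5 (listed as Sfrs5, -1.75 ± 0.24) and Luc7l2 (-1.65 ± 0.43), which bind RNA or act in splicing, fell too and were named after their values were seen, and each single-array removal ended the call of Luc7l2. The chaperone Hspa8 (-1.75 ± 0.26) was the only call in the immediate early and heat shock list. Clec2d, a lectin-like ligand of an NK cell receptor, read 6.50, 6.27 and 6.13 at D3 and 9.21, 9.15 and 9.06 at D0 (-2.85 ± 0.25). The Z-disc protein Pdlim5 differed by -2.53 ± 0.17 on its brighter probe and by -0.24 on its second.

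Of 52 tested ribosomal protein genes, 1 rose, Rpl13a (1.20 ± 0.25), none fell, and the median was 0.28. Over all tested genes 0.972% rose, and 20.7% had an unadjusted p under 0.05 by limma. By limma none was called of 29 proteasome genes (8 at an unadjusted p under 0.05, 0 by the methods' t-test), 12 megakaryocyte and platelet genes (0 at an unadjusted p under 0.05, 0 by the methods' t-test), 14 circadian clock genes (1 at an unadjusted p under 0.05, 0 by the methods' t-test) and 20 hypoxia and glycolysis genes (4 at an unadjusted p under 0.05, 0 by the methods' t-test).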
